A study of Homo sapiens with 4 samples.

Results

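The zinc finger genes of human chromosome 19 were followed by sequencing the RNA of THP-1, a monocytic line grown from a human acute leukaemia. A gene was a member where its name in the count tables was ZNF, a number and at most 1 further letter, and where RefSeq places the gene on chromosome 19. This rule gave 252 genes of the 25680 listed, 249 matched by symbol and 3 by an older symbol, and it used no measured value. THP-1 cells received a lentivirus with a scrambled shRNA (PGP-Scrambled) or with an shRNA against PIWIL4 (PGP-shPIWIL4), and were sorted 48 hours after transduction. Each group held 2 libraries, here Scrambled libraries 1 and 2 and shPIWIL4 libraries 1 and 2, so both groups carry a lentivirus and went through the sort. The question was which transcripts change in this line once PIWIL4, a PIWI-family Argonaute protein, is knocked down. There was 1 cell line and 1 shRNA against PIWIL4, and the labels do not say whether the libraries came from separate cultures, so p-values measure only the spread between these libraries.

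C2H2 zinc finger proteins bind DNA through rows of small domains, each folded around a zinc ion held by cysteines and histidines. Most of those on chromosome 19 also carry a KRAB domain, which recruits the corepressor TRIM28 (KAP1) and with it the H3K9 methyltransferase SETDB1 and HP1 proteins. Many bind transposable elements, and the genes lie in tandem clusters that grew by duplication. Reads from close copies can be shared or lost in counting, and how such reads were treated is not given in the sources used here, so values of single members with close copies are uncertain. The same holds for members that overlap an antisense or read-through transcript, since the strand setting is not given either.

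Total counts ranged from 31458079 to 53657246 per library. The treatment label of the shPIWIL4 libraries names PIWIL4 as the target but also calls the shRNA scrambled, so the groups were taken from the titles. PIWIL4 itself stood at 38.5 and 37.2 CPM (the count as a rate of the library total after TMM scaling) in Scrambled libraries 1 and 2 and at 17.8 and 17.4 CPM in shPIWIL4 libraries 1 and 2, a fall in both. All 10 myeloid marker genes, among them CD33, SPI1 and CEBPA, were above 1 CPM in all 4 libraries. Of these 10, LYZ, CD68 and FCGR1A rose, MPO and CSF1R fell and 5 were not called. Their summed level was 1058 and 1087 CPM in Scrambled and 2922 and 2884 CPM in shPIWIL4, most of the difference coming from LYZ, at 143.5 and 151.5 CPM and then 1803 and 1817 CPM. Of 12 markers of other cell types, CD3E and PF4 were among those at 0 counts in all 4 libraries, and PECAM1, which monocytes also express, was the highest, at up to 106 CPM. Among those that passed the filter, PECAM1 rose, and COL1A1 and KRT18 fell and were at most 2.37 CPM in any library. Summed over the 12 markers, the level was 86.8 and 78.5 CPM in the Scrambled libraries and 96.4 and 108 CPM in the shPIWIL4 libraries, and the part of either marker list in the results below was not tested.

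The promoters of 5 members show the kind of sequence these genes start from. ZNF160, ZNF320, ZNF382 and ZNF568 are among the largest falls described below, and ZNF576 was the 1 member that rose. Each line is the 250 bases before the gene's start in RefSeq (GRCh38.p14), 5′ to 3′ on the gene's own strand. Capitals mark the GC box (GGGCGG), the CCAAT box (CCAAT) and the core of ETS-family sites (CCGGAAG), on either strand. The windows are chr19:53103423-53103672 (minus strand), chr19:52897695-52897944 (minus strand), chr19:36605063-36605312 (plus strand), chr19:36916082-36916331 (plus strand) and chr19:43596142-43596391 (plus strand).
ZNF160: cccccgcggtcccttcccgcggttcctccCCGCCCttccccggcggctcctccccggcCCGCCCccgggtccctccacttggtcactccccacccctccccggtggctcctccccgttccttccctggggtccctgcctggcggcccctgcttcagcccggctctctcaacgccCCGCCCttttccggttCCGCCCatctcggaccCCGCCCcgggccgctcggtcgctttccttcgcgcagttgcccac
ZNF320: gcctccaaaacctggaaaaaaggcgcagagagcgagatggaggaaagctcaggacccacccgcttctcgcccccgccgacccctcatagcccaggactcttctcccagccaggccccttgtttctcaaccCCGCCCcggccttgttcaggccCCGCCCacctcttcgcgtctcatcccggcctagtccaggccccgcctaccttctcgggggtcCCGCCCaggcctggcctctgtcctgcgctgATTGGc
ZNF382: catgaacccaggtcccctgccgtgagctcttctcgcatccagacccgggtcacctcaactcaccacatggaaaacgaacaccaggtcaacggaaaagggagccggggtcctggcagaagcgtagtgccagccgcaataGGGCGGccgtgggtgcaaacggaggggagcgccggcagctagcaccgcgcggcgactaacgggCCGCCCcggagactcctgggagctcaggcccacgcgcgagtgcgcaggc
ZNF568: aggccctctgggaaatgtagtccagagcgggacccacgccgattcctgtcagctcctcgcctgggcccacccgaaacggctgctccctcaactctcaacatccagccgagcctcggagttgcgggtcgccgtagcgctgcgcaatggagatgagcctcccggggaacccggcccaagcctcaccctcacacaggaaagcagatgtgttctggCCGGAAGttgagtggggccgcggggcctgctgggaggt
ZNF576: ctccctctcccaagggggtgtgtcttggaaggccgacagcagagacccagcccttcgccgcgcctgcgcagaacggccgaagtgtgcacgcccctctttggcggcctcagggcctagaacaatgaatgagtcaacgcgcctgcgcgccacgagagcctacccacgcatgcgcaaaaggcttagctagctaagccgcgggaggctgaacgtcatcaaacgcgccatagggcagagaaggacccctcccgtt

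RefSeq held a promoter for 213 of the 252 members. GGGCGG occurred in 64.8% of them against 42.3% of all 27305 promoters in the table, and CCAAT in 50.7% against 33.0%. The ETS core CCGGAAG occurred in 31.5% against 8.8%, and TATAAA in 1.9% against 11.1%. A longer form of the CCAAT box, CCAATCAG, was chosen after the promoters were seen, and occurred in 25.4% against 4.0%. Both strands were searched, and CCAATCAG contains CCAAT. The E box CACGTG occurred in 3.8% of member promoters and in 6.5% of all promoters. These shares describe letters in a window and say nothing of which factors bind there. Of the 146 promoters of members that fell, 33.6% held CCGGAAG and 66.4% GGGCGG, and 73 held CCAAT. Of the 53 promoters of members that were tested and not called, 28.3% held CCGGAAG and 58.5% GGGCGG, and 27 held CCAAT. The median GC content was 59.6% in the first set and 60.4% in the second. CCAATCAG occurred in 27.4% of the first set and 15.1% of the second, and TATAAA in 4 promoters of the first and 0 of the second. None of these differences was tested.

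Transcripts of the chromosome 19 zinc finger genes were lower in the shPIWIL4 libraries. Of 252 members, 233 passed the filter on low counts, and 171 of these fell and 1 rose at an adjusted p under 0.05 in edgeR's quasi-likelihood test. Over all 16108 genes tested, 29.1% fell and 28.7% rose, 57.7% in either direction, so falls were more frequent among the members than over all genes and rises less frequent. In these bulk samples, fewer cells that transcribe a gene and less RNA per cell cannot be told apart. The median log2 fold change of the tested members was -0.62 (quartiles -0.96 and -0.34), beside -0.0034 over all tested genes. A fall of at least 2-fold was found for 52 members, where the background is 11.3%. The fitted change was negative for 225 of the 233 members. Leaving out shPIWIL4 library 1 raised the rises from 1 to 4, and leaving out Scrambled library 2 or shPIWIL4 library 2 gave 2.

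Most members did not overlap between the groups. Both shPIWIL4 libraries lay below both Scrambled libraries for 199 tested members, against a background of 39.5%. Both lay above for 4, against a background of 39.1%, and the remaining 30 overlapped. The filter could favour a member through the group where it is high, and 5 of the 233 reached the minimum in both Scrambled libraries without reaching it in both shPIWIL4 libraries. Among the 225 members that reached it in both groups, 166 fell and 1 rose.

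Taken as a pool, reads of the 252 members were a small part of each library. They held 0.399% of all counts in Scrambled library 1 (95% Wilson interval 0.396% to 0.401%) and 0.397% in Scrambled library 2 (0.396% to 0.399%). In shPIWIL4 libraries 1 and 2 they held 0.257% (0.256% to 0.259%) and 0.268% (0.267% to 0.269%). The intervals cover counting error only. The means were 0.398% ± 0.00095 and 0.263% ± 0.0075 (SD, n = 2 each), a share 1.51 times as large in Scrambled. The exact two-sided permutation test gave p = 0.333, the smallest value that 2 libraries against 2 allow.

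**Figure D1:**
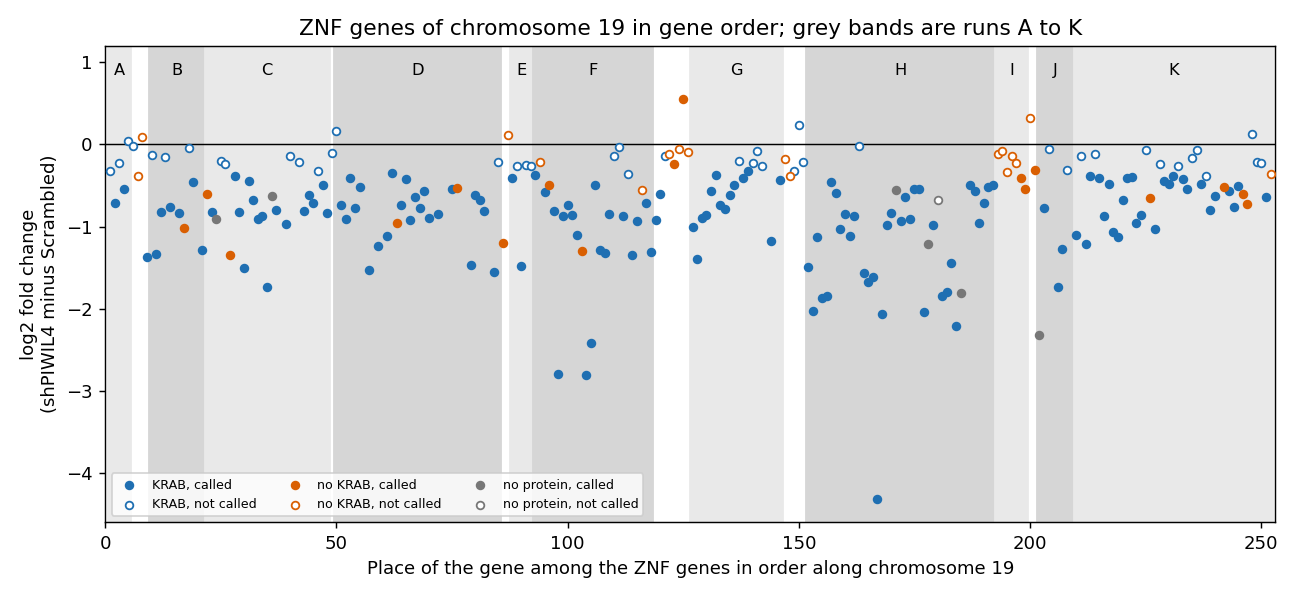
The log2 fold change of each tested member (vertical axis, shPIWIL4 minus Scrambled) is plotted against its place among the 252 members in gene order along chromosome 19 (horizontal axis). Filled points are called at an adjusted p under 0.05, colours give the KRAB class and grey bands are the runs A to K; most points lie below 0 and the lowest, ZNF534, rests on 2 counts in shPIWIL4.

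Position was compared by gene order. A run was a stretch in which at most 5 other protein-coding genes lie between successive members, and 11 runs, lettered A to K in gene order, held at least 5 members. The plot of fold change by gene order shows falls along the whole length. Run H, from ZNF577 to ZNF331, had 38 falls among 40 tested members, 19 of them by at least 2-fold, and a median log2 fold change of -0.98. In run D, from ZNF101 to ZNF254, 25 of 27 fell, with a median of -0.74. In run F, from ZNF565 to ZNF573, 21 of 26 fell, with a median of -0.85, and in run C, from ZNF653 to ZNF791, 20 of 25, with a median of -0.71. In run K, from ZNF264 to ZNF446, 30 of 42 fell, with a median of -0.48. Run G, from ZNF283 to ZNF180, had 14 falls of 18 and a median of -0.53.

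The shorter runs were more mixed. In run B, from ZNF317 to ZNF846, 7 of 10 tested members fell, with a median of -0.79, and in run J, from ZNF542P to ZNF835, 4 of 6, with a median of -1.02. Run A (ZNF554 to ZNF77) had 2 falls of 5, run E (ZNF302 to ZNF792) 2 of 5 and run I (ZNF628 to ZNF580) 2 of 7. With upper-quartile factors run A and run E each had 4 falls. For run E the number was also 4 without shPIWIL4 library 2 and 1 in DESeq2, and for run I it was 4 without shPIWIL4 library 1 and 1 without Scrambled library 2. Among the 22 members outside the runs, 6 fell and 1 rose, with a median of -0.16. Their share of falls, 27.3%, and that of run I, 28.6%, lay near the 29.1% over all tested genes. No member inside a run rose in edgeR (0 of 211 tested, 0 at an unadjusted p under 0.05, 0 in DESeq2), although without shPIWIL4 library 1 the count was 1. Differences between runs were not tested.

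Genes that are not members but lie inside the runs gave 16 further tested genes that were not classed as KRAB zinc finger genes, of which 9 fell and 3 rose. These shares were 56.25% and 18.75%, where 29.1% of all tested genes fell and 28.7% rose. Their median log2 fold change was -0.53, beside -0.62 for the members, and the difference was not tested. The genes named here were chosen after their values were seen. The 3 rises were ECSIT and ELOF1 in run C and FIZ1 in run I. C19orf18 in run K fell by 2.44 on the log2 scale (SE 0.26), SMIM17 in run J by 1.17 and the phosphatase scaffold gene PPP2R1A in run H by 0.27. One of the 9 falls, ZNF816-ZNF321P in run H, is a read-through transcript of members. The 7 tested KRAB zinc finger genes of chromosome 19 whose names fall outside the rule (ZFP14, ZFP28, ZFP30, ZFP82, HKR1, ZIK1 and the read-through ZNF559-ZNF177) all fell. Their log2 fold changes ran from -2.25 for ZIK1 to -0.37 for ZNF559-ZNF177.

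**Figure D2:**
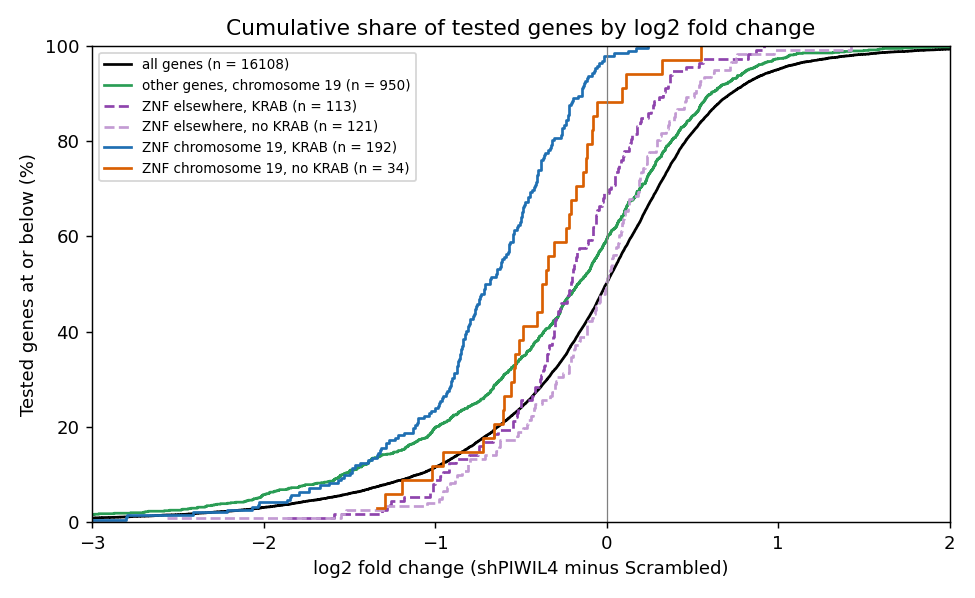
Each line gives the percentage of tested genes (vertical axis) at or below a log2 fold change (horizontal axis, shPIWIL4 minus Scrambled, shown from -3 to 2) for 1 class of genes. The line of KRAB members on chromosome 19 reaches 50% at -0.69, the line of members without KRAB at -0.37 and the line of all genes at -0.0034.

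The KRAB domain was read from GENCODE transcripts, translated and searched for the conserved core of the domain's A box, and 208 of 243 members with a protein carried it. The 2 classes were well apart: KRAB members differed from the core in at most 2 of 9 places, and the others in at least 4. KRAB members had a median of 13 zinc fingers and the others a median of 9, with up to 39 in a member. Of 192 tested KRAB members, 149 fell, with a median log2 fold change of -0.69. None rose in edgeR (0 called, 0 in DESeq2, and 1, ZNF473, at an unadjusted p under 0.05), although 2 did without shPIWIL4 library 1. Of 34 tested members without the core, 16 fell and 1 rose, with a median of -0.37. Of 7 tested members with no protein in the annotation, pseudogenes such as ZNF542P and ZNF818P, 6 fell. The difference between the classes was not tested. Within the KRAB members, the number of fingers had a Spearman rho of -0.074 with the log2 fold change across 192 genes, and members that fell and members not called had the same median of 13 fingers.

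ZNF-numbered genes on other chromosomes moved less. Of 113 tested with a KRAB core, 42 fell and 11 rose, with a median of -0.21, and of 121 without it 37 fell and 29 rose, with a median of -0.0055. Of 950 other genes tested on chromosome 19, 368 fell and 203 rose, with a median of -0.17. The shares of falls and rises were 38.7% and 21.4% for these genes. For the KRAB genes on other chromosomes they were 37.2% and 9.7%, and for those without the core 30.6% and 24.0%. Over all tested genes 29.1% fell and 28.7% rose. All these classes share the same 4 libraries, and the differences from the members were not tested.

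**Figure D3:**
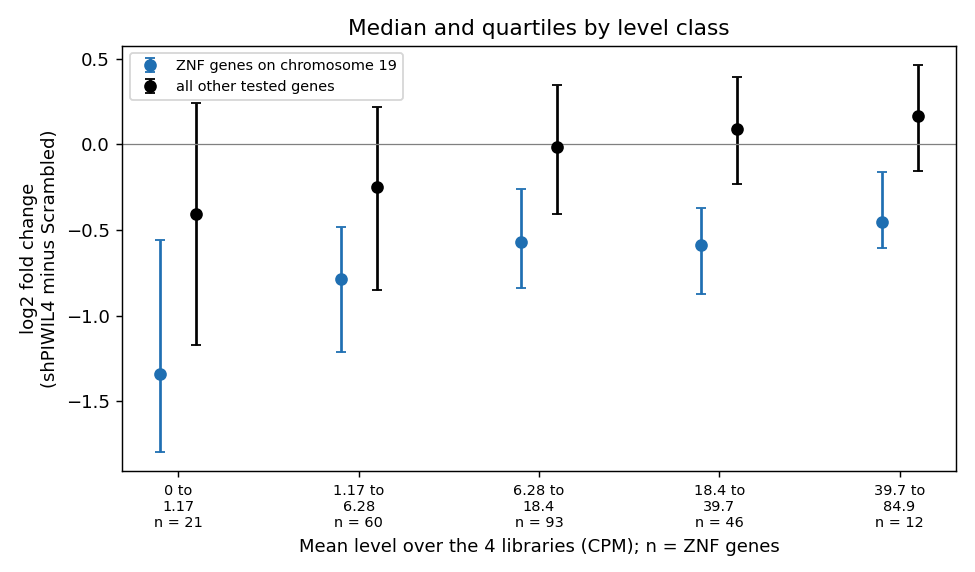
Points are median log2 fold changes (vertical axis, shPIWIL4 minus Scrambled) and bars the quartiles, for members and for all other tested genes, in classes of mean level over the 4 libraries (horizontal axis, CPM). The members' median lies below that of the other genes in each of the 5 classes shown, and the sixth class holds 1 member and is left out.

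Members are expressed at low levels, with a median of 9.56 CPM over the 4 libraries against 18.4 CPM over all tested genes, and the share of falls among all genes differed with level. The comparison was therefore laid out by level, in 6 classes of equal size over all tested genes. Between 1.17 and 6.28 CPM, 49 of 60 members fell, where 41.7% of the other genes did, with medians of -0.78 and -0.25. Between 6.28 and 18.4 CPM it was 62 of 93, where 29.8% of others fell, with medians of -0.57 and -0.014. Between 18.4 and 39.7 CPM it was 38 of 46, where 22.7% of others fell, with medians of -0.59 and 0.088. Between 39.7 and 84.9 CPM it was 8 of 12, where 20.2% of others fell, with medians of -0.45 and 0.17. The lowest class, up to 1.17 CPM, had 14 falls among 21 members, where 34.5% of others fell, with medians of -1.34 and -0.40. This class includes members that passed the filter only through Scrambled, such as ZNF829 and ZNF599. Across the 233 members, mean level and log2 fold change had a Spearman rho of 0.29, and both come from the same counts.

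**Figure D4:**
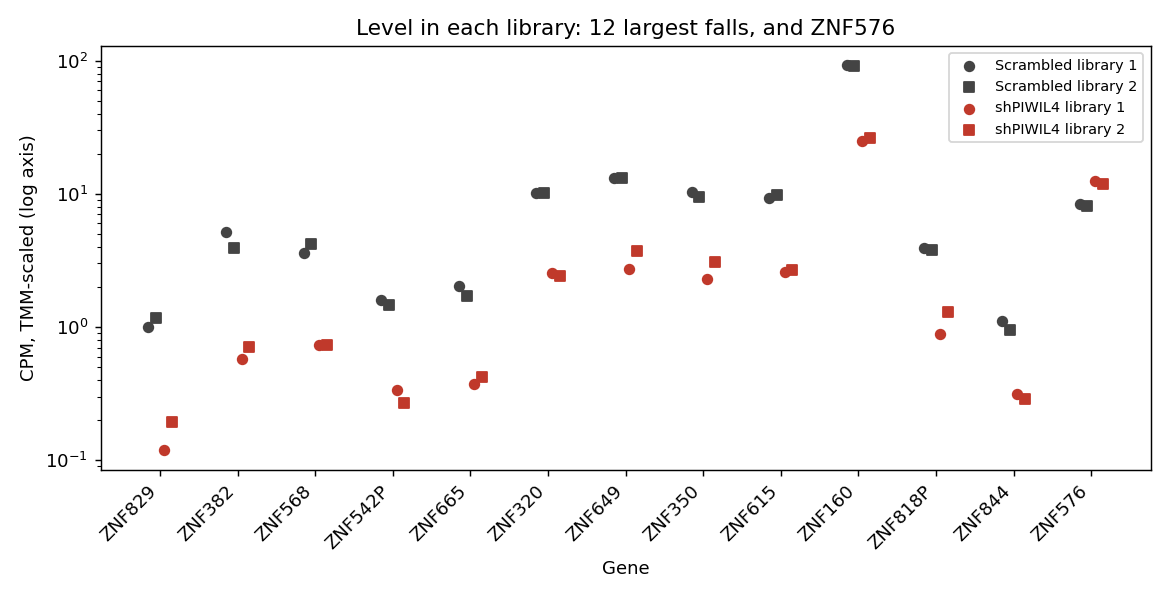
Each point is the level of a gene in 1 library (vertical axis, CPM on a log scale) for the 12 largest falls whose Scrambled mean reached 1 CPM and for ZNF576, the 1 member that rose. Dark grey points are Scrambled and red points shPIWIL4 libraries. The 13 genes were chosen on the condition that the groups do not overlap.

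The 12 largest falls whose Scrambled mean reached 1 CPM came from runs F, H, J and C. ZNF382, a KRAB repressor often silenced by promoter methylation in tumours, stood at 5.13 and 3.94 CPM in Scrambled and 0.572 and 0.712 CPM in shPIWIL4, and fell by 2.80 on the log2 scale (SE 0.21). ZNF568 lies in run F like ZNF382, and its mouse counterpart represses a placental form of Igf2. Human ZNF568 stood at 3.59 and 4.17 CPM in Scrambled and 0.730 and 0.731 CPM in shPIWIL4, and fell by 2.41 (SE 0.18). ZNF829, also in run F, had 1.01 and 1.17 CPM in Scrambled and 0.118 and 0.192 CPM in shPIWIL4. Groups that do not overlap were a condition for entering these 12, so the lack of overlap in any of the 12 is no result. ZNF829, with 6 and 10 counts in shPIWIL4, is 1 of the 5 members that passed the filter only through Scrambled, so it had to differ. The pseudogene ZNF542P of run J fell by 2.32, from 1.53 ± 0.10 to 0.302 ± 0.047 CPM, and ZNF844 of run C by 1.73, from 1.02 ± 0.11 to 0.302 ± 0.019 CPM (SD, n = 2 each).

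The other 7 of these 12 lie in run H. ZNF160, for which a role in repressing the lipopolysaccharide receptor gene TLR4 has been described, was the most abundant of them, at 92.5 and 91.7 CPM in Scrambled and 25.03 and 26.4 CPM in shPIWIL4. It fell by 1.84 on the log2 scale (SE 0.085), with an adjusted p of 5.3e-07 in edgeR. ZNF320 stood at 10.1 and 10.2 CPM and then 2.53 and 2.42 CPM, and ZNF615 at 9.26 and 9.76 CPM and then 2.61 and 2.69 CPM. Replicates of both genes lay close together. Both were chosen for a large fall without overlap, so the distance between the groups is no result. ZNF350 (ZBRK1), a partner of BRCA1 in repression, had 10.3 and 9.40 CPM in Scrambled and 2.29 and 3.08 CPM in shPIWIL4. ZNF649 went from 13.1 ± 0.027 to 3.21 ± 0.71 CPM, ZNF665 from 1.88 ± 0.23 to 0.399 ± 0.034 CPM and the pseudogene ZNF818P from 3.85 ± 0.081 to 1.09 ± 0.28 CPM (SD, n = 2 each). The 2 members of run H that were not called were ZNF480, at 41.4 and 40.4 CPM in Scrambled and 37.1 and 43.8 CPM in shPIWIL4, and the pseudogene ZNF702P at 1 to 12 counts per library. These 2, and ZNF534 with 17 and 20 counts in Scrambled and 0 and 2 counts in shPIWIL4 and past the filter only through Scrambled, fall outside the naming rule and were chosen after their values were seen.

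By the smallest p in each run, further members are named, most with falls smaller than those above. ZNF264 of run K stood at 58.8 and 64.8 CPM in Scrambled and 28.5 and 29.2 CPM in shPIWIL4, and ZNF211 of the same run fell by 1.03. ZNF738 and ZNF737 of run D fell by 0.92 and 1.23, and ZNF738 showed a KRAB core and no finger in the annotated proteins. ZNF470 and ZNF471, consecutive among the members of run J but with other genes between them, fell by 1.27 and 1.73. ZNF404 and ZNF45 of run G fell by 1.39 and 0.89, ZNF846 and ZNF121 of run B by 1.29 and 1.02, and ZNF136 and ZNF791 of run C by 0.97 and 0.84. In run A, ZNF555 fell by 0.71 and ZNF57 by 0.54, and in run E ZNF302 fell by 0.41. ZNF599 of run E, at under 1 CPM in each library and also past the filter only through Scrambled, fell by 1.49 in edgeR and was not called in DESeq2. ZNF580 and ZNF581, small neighbouring genes of run I without KRAB, fell by 0.54 and 0.41, and the call of ZNF581 was lost without Scrambled library 2.

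Of 8 members listed as binding transposable elements, all with a KRAB core, 7 fell, with a median log2 fold change of -0.72. For comparison, 77.6% of all tested KRAB members and 29.1% of all tested genes fell. ZNF91, which binds SVA elements and has 32 fingers by the count used here, stood at 29.9 and 31.0 CPM in Scrambled and 18.7 and 19.3 CPM in shPIWIL4, a fall of 0.68 (SE 0.093). ZNF93, which binds L1 elements, had 29.8 and 26.9 CPM and then 15.7 and 17.5 CPM, a fall of 0.77 (SE 0.11). The groups did not overlap for either. ZNF808, which binds MER11 elements, fell by 0.98, ZNF765 by 0.96, ZNF611 by 0.64 and ZNF649, given above, by 2.03. ZNF417 and ZNF587 are close copies that bind HERV-K. ZNF417 fell by 0.48, and ZNF587, the most abundant of the 8 at 89.8 and 88.2 CPM in Scrambled and 76.3 and 82.0 CPM in shPIWIL4, had a log2 fold change of -0.17 and an adjusted p of 0.10 in edgeR. ZNF587 was called lower without shPIWIL4 library 2. Transposable elements themselves are not rows of the tables.

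Of 16 members with another described role, 10 fell, with a median of -0.49, where 73.4% of all tested members and 29.1% of all tested genes fell. ZNF274, which brings SETDB1 to the 3′ ends of zinc finger genes, stood at 95.8 and 92.2 CPM in Scrambled and 62.1 and 64.6 CPM in shPIWIL4, a fall of 0.57 (SE 0.080) with groups that did not overlap. ZNF224, a repressor of the aldolase A gene, fell by 0.50, ZNF675 (TIZ), an inhibitor of TRAF6 signalling, by 0.80, the imprinted gene ZNF331 by 0.49 and ZNF420 (Apak), an inhibitor of p53, by 0.49. The call of ZNF420 was lost without Scrambled library 2. ZNF444, a SCAN-domain factor, fell by 0.30, and this call was lost without either Scrambled library, without shPIWIL4 library 2 and in DESeq2. ZNF473, which takes part in processing histone pre-mRNA, had 32.5 and 29.04 CPM in Scrambled and 33.8 and 38.7 CPM in shPIWIL4, with a log2 fold change of 0.24 and an adjusted p of 0.076 in edgeR, and it was called higher without shPIWIL4 library 1. ZNF146, ZNF175, ZNF296, ZNF304 and ZNF541 were not called, with log2 fold changes from -0.38 to -0.11. Without shPIWIL4 library 2, ZNF146 and ZNF175 were called lower, and without shPIWIL4 library 1 ZNF296 was, while its sign turned positive without Scrambled library 2 or shPIWIL4 library 2.

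Of 8 members known to be silenced by promoter methylation in tumours, 7 were tested and 5 fell. The share of falls was 73.4% over all tested members and 29.1% over all tested genes. Besides ZNF382 and ZNF331, these were ZNF582, from 3.03 ± 0.26 to 1.76 ± 0.31 CPM, ZNF671, from 19.5 ± 0.066 to 13.9 ± 0.028 CPM, and ZNF154, from 2.94 ± 0.34 to 2.18 ± 0.016 CPM (SD, n = 2 each). ZNF154 was not called without either Scrambled library or in DESeq2. ZNF132 had a log2 fold change of -0.23 and ZNF177 of -0.15, and neither was called, while ZNF132 was called lower without shPIWIL4 library 2. ZNF135 was at 0 counts in both Scrambled libraries and at 1 count in each shPIWIL4 library, and was not tested.

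Levels per kilobase of gene length differed over a wide range between members. ZNF146, a protein of zinc fingers without KRAB, was the highest in Scrambled at 46.9 CPM per kilobase, followed by ZNF274 at 32.5, ZNF700 at 23.2, ZNF224 at 21.4 and ZNF160 at 21.2 CPM per kilobase. Of these 5, all but ZNF146 fell, ZNF700 by 0.45 on the log2 scale. The library values of ZNF146 were 188 and 174 CPM in Scrambled and 146 and 167 CPM in shPIWIL4, lower in both by a small amount that did not pass the test (adjusted p = 0.081, edgeR).

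ZNF576, a small protein without KRAB that lies outside the runs, was the 1 member that rose. It stood at 8.41 and 8.11 CPM in Scrambled and 12.4 and 11.8 CPM in shPIWIL4, a log2 fold change of 0.55 (SE 0.11) with an adjusted p of 0.0020 in edgeR. Its promoter window, printed above, holds none of the 3 marked motifs, which says only that these letters are not there.

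**Figure D5:**
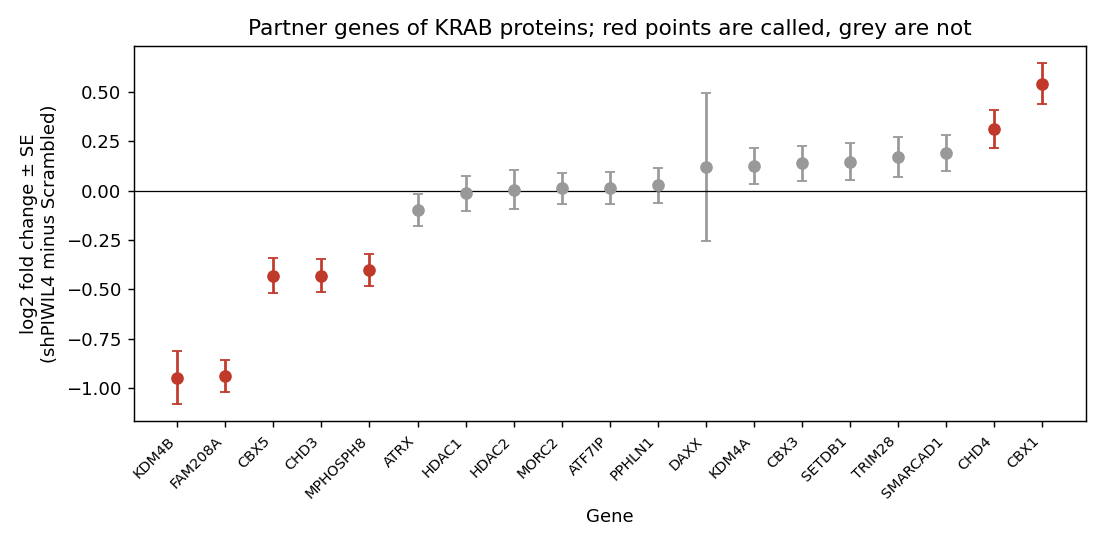
Points are log2 fold changes (vertical axis, shPIWIL4 minus Scrambled) with bars of 1 SE for 19 genes listed around KRAB repression (horizontal axis). The list also holds the histone demethylase genes KDM4A and KDM4B, whose products remove H3K9 methylation. The 7 called genes, in red, are 5 falls led by KDM4B and FAM208A and 2 rises, CHD4 and CBX1.

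Of 19 tested partner genes listed around KRAB repression, 5 fell and 2 rose, with a median log2 fold change of 0.014. The list also holds KDM4A and KDM4B, whose products remove H3K9 methylation. Over all tested genes 29.1% fell and 28.7% rose, so the falls were near the background and the rises below it. TRIM28, the corepressor that KRAB domains bind, stood at 283 and 313 CPM in Scrambled and 362 and 308 CPM in shPIWIL4, with overlapping groups and a log2 fold change of 0.17 (SE 0.10). SETDB1 had a log2 fold change of 0.15 (SE 0.092), and neither was called. FAM208A (TASOR) and MPHOSPH8, both of the HUSH silencing complex, fell by 0.94 (SE 0.082) and 0.40 (SE 0.081). PPHLN1, of the same complex, had a log2 fold change of 0.028 (SE 0.090) and was not called. The HP1 genes differed, with CBX5 lower by a log2 fold change of -0.43, CBX1 higher by 0.54 and CBX3 at 0.14 and not called. The histone demethylase gene KDM4B fell by 0.95, and KDM4A had a log2 fold change of 0.13 and was not called. The NuRD remodeller genes CHD3 and CHD4 had log2 fold changes of -0.43 and 0.31.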

How the data were processed

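RNA was sequenced from 4 THP-1 libraries, 2 a group, and groups were taken from the sample titles. Per the submitters' processing notes, the authors used STAR, featureCounts and DESeq2 with the build hg19, and for versions, annotation, strand and multi-mapping the entry is: not given in the sources used here. Each deposited table holds, per gene, the authors' raw read count, FPKM and TPM. FPKM served only to recover gene lengths, and the TPM values entered no test. A deposited table of scaled counts of the same libraries was not used.

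All genes entered edgeR 4.0.16 (R 4.3.3), filtered by filterByExpr (min.count 10, min.total.count 15), scaled by TMM and compared by the robust quasi-likelihood F test on group alone. Benjamini-Hochberg adjustment ran over the 16108 genes left, and a call is an adjusted p under 0.05. The SE is the log2 fold change divided by the square root of F. TMM scaling takes most genes as unchanged. DESeq2 1.42.0 was an alternative. The method was tested on simulated counts. Replicates were compared by a chi-square per gene, 7.89 for Scrambled and 27.9 for shPIWIL4, above sampling noise.

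Chromosomes and gene order came from RefSeq on GRCh38.p14, not the authors' build, so coordinates are printed for promoter windows only. No protein table was given. The KRAB class was therefore read from GENCODE release 29 transcripts, where an earlier plan had named a protein table. A finger is 2 cysteines and 2 histidines at the usual spacing. Members and lists were chosen with earlier results of these data known. The named members are the 12 largest falls and rises among called members that reach 1 CPM on average in their higher group and do not overlap, the members of the lists of transposon-binding, described-role and tumour-silenced genes, the 5 highest per length, and up to 2 per run and direction with the smallest p, with the 4 partner genes of smallest p. The other partner genes named (TRIM28, SETDB1, MPHOSPH8, PPHLN1, CBX3, CBX5, CHD4 and KDM4A) fall outside this rule. Depth was 31458079 to 53657246 counts per library. Single values of some marker genes are not reported here.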

Additional observations from a re-analysis of the deposited data

How the results depend on the processing

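The number of members that fell was 171 and lay between 149 and 191 under every alternative tried, all within 1.5 times. DESeq2 gave 153, each of them among the 171, and upper-quartile factors gave 191, which include all 171. With members of at least 1 CPM on average, added after the data were seen, 160 of 215 fell. Members that rose numbered 1, with 2 when no filter was used, 4 with the crossed pairing and 1 to 4 when a library was left out. KRAB members that rose numbered 0, with 1 when no filter was used, 2 with the crossed pairing and 0 to 2 when a library was left out, and members inside runs that rose numbered 0, with 1 with the crossed pairing and 0 to 1 when a library was left out. In run A, 4 fell with upper-quartile factors. In run E, 1 fell in DESeq2 or with the stricter filter, 4 with upper-quartile factors or the crossed pairing and 2 to 4 when a library was left out. In run I, 1 to 4 fell when a library was left out.

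The median log2 fold change of the members, -0.62, was -0.66 with library totals and -0.74 with upper-quartile factors, which moved the median of all genes to -0.12. It ranged from -0.70 to -0.57 when a library was left out. The ratio of the members' share of counts, 1.51, was 1.57 without the 100 genes with the most counts. ZNF296, which was not called, had a log2 fold change of 0.073 without Scrambled library 2 and 0.11 without shPIWIL4 library 2, and its range when a library was left out was -0.55 to 0.11. Over the named members, 580 values under alternatives kept direction and side of the threshold, 17 passed it anew, 14 missed it and 2 changed sign. Leaving out a library leaves a group with 1 library, whose spread is assumed to be that of the other group.

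The groups share replicate numbers, and same-numbered libraries had a correlation of deviations of -0.31 over 16108 genes, so the numbers were not taken to pair the libraries. With the replicate block, 162 members fell and 1 rose, and all 162 were among the 171, while ZNF444 and ZNF154 lost their calls. The crossed pairing, added after the correlation was seen, gave 191 falls and 4 rises. Depth limits the members not tested and those under 1 CPM.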

Other observations

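Of the 19 members that were not tested, ZNF229 and ZNF826P were at 0 counts in all 4 libraries and the other 17 had at most 29 counts over the 4 libraries together. Run D held 9 of the 19: ZNF90, ZNF99, ZNF208, ZNF626, ZNF676, ZNF681, ZNF728, ZNF729 and ZNF826P. ZNF99 had 8 counts in each Scrambled library and 0 and 3 counts in shPIWIL4 libraries 1 and 2, and ZNF625 of run C had 3 and 15 counts in Scrambled and 6 and 5 counts in shPIWIL4. These genes were chosen after their values were seen, and their levels are too low to compare.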
